A study of Mus musculus with 6 samples.

Results

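Complex I of the respiratory chain, NADH-ubiquinone oxidoreductase, has a catalytic core whose subunits are encoded partly in the nucleus and partly in mitochondrial DNA. The transcripts of 6 nuclear core subunits were followed here, namely Ndufv1, Ndufv2, Ndufs1, Ndufs3, Ndufs7 and Ndufs8. They were taken by gene symbol and Ensembl identifier from the deposited table, in which each symbol had 1 row, so the set is 6 of 60193 listed genes.

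Electrons enter complex I from NADH in the N module, pass along a chain of iron-sulfur clusters and reach ubiquinone in the Q module, and the energy released drives protons across the inner membrane. NDUFV1 binds NADH and the flavin that accepts its electrons, and NDUFV2 and NDUFS1 complete the N module and carry further clusters. NDUFS3, NDUFS7 and NDUFS8 belong to the Q module, where NDUFS7 holds the last cluster before ubiquinone. The proton-pumping membrane arm is built on the mitochondrially encoded core subunits, and accessory subunits surround the whole. The oocyte carries its mitochondria into the embryo, and its maturation to metaphase II (MII) runs largely without transcription, on stored mRNAs.

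The data are RNA-seq of 6 pools of MII oocytes from ICR mice aged 42 to 45 weeks, 3 of them after maturation in vitro (IVM) and 3 after maturation in vivo (IVO). All mice had been primed with PMSG, a gonadotropin from mare serum, at 5 IU. For IVM, germinal vesicle oocytes were taken 46 h later, stripped of cumulus cells and cultured for 12 h in M16 medium. For IVO, the mice received 5 IU of human chorionic gonadotropin (hCG) after the same 46 h, and 14 h later the ovulated oocytes were freed of cumulus cells with hyaluronidase. Each pool held 20 oocytes from 3 mice, so no value belongs to a single oocyte or mouse. The groups thus differ in culture, in hCG and in the stage at which cumulus cells were removed, and these cannot be told apart.

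The values are the authors' FPKM, the fragments of a gene divided by transcript length and by library size. The depth that the spacing of low values implies was 16500000 to 19500000 fragments in the IVM libraries and 17900000 to 18200000 in the IVO libraries. The inferred mean fragment length was 207.5 to 217.5 bases in IVM and 250.0 to 270.0 bases in IVO libraries, so the groups did not overlap. Over the 18818 tested genes the median difference of log2(FPKM + 1) between IVO and IVM, called log2FC below, was -0.30. Scaling the libraries by median ratios brought it to -0.04. All 10 oocyte markers examined were present in every library, but their levels were not alike between the groups. The zona pellucida genes Zp1, Zp2 and Zp3 and the maternal effect gene Nlrp5 were lower in IVO, with IVM means of 5.72, 14.1, 9.61 and 3.92 times the IVO means and adjusted p-values from limma of at most 0.00351. The sum of the 10 was 21333 to 27825 FPKM in IVM and 21085 to 23299 FPKM in IVO libraries, mostly from Oosp1 and Dppa3. Of 13 markers of cumulus and granulosa cells, 10 stayed under 1 FPKM in every library, Foxl2 was at 0 in 5 of 6 libraries, and the summed level of the 13 was 31.0 to 61.6 FPKM in IVM and 34.4 to 57.7 FPKM in IVO libraries. Most of this sum was Fshr at 6.14 to 16.3, Cyp19a1 at 16.25 to 23.13 and Amhr2 at 3.14 to 27.89 FPKM over the 6 libraries, each with overlapping groups. The cumulus expansion genes Ptx3, Has2 and Tnfaip6, all under the filter for testing, had every IVO value above every IVM value, at no more than 0.49 FPKM. Among tested genes 9.62% did so. The groups overlapped for Ptgs2, another expansion gene, at 0.04 to 0.19 FPKM in IVM and 0.16 to 0.5 FPKM in IVO. Inha had the higher mean in IVM, 0.57 against 0.213 FPKM, with overlapping groups. The 5 blood markers summed to at most 1.04 FPKM in IVM and 5.82 FPKM in IVO libraries, and the 5 oviduct markers, mostly through Epcam, to 2.93 to 3.16 FPKM in IVM and 3.40 to 5.76 FPKM in IVO libraries, where every library was above the IVM range. Epcam by itself had overlapping groups (log2FC 0.42, adjusted p = 0.281 from limma). Krt8 went the other way, with every IVO value below every IVM value, at no more than 0.18 FPKM. The part of cumulus, granulosa, blood or oviduct cells in the results was not tested.

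The nuclear core subunits did not move as a block between in vitro and in vivo maturation. Ndufs7 and Ndufs8 had lower levels in IVO oocytes by both criteria of the test, with a mean FPKM in IVM 2.63 and 3.02 times that in IVO. Ndufv2 was lower at an adjusted p under 0.05, but its log2FC stayed short of the threshold. For Ndufv1, Ndufs1 and Ndufs3 no difference passed the test, and Ndufs3 was the single member with a higher mean in IVO. A gene was counted as a differentially expressed gene (DEG) at |log2FC| of at least 1 and a Benjamini-Hochberg adjusted p under 0.05 from limma over all tested genes. By this rule 2 of the 6 members were DEGs lower in IVO, beside 17.9% of all tested genes. None was a DEG higher in IVO, beside 0.606% of all tested genes, and by limma 3 of the 6 members had an unadjusted p under 0.05 in either direction, beside 36.9% of all tested genes. At an adjusted p under 0.05 without the fold threshold, 3 of 6 members were lower, beside 21.5% of tested genes. The 3 IVO values lay below the 3 IVM values in 4 of 6 members, beside 32.6% of tested genes, and above them in none, beside 9.62%. The median log2FC of the 6 was -0.76. Since each library is scaled to its own total, fewer transcripts per oocyte and a smaller share of a larger total cannot be told apart. Each pool held 20 oocytes, but for other cell types fewer cells and less RNA per cell cannot be told apart either.

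**Figure D1:**
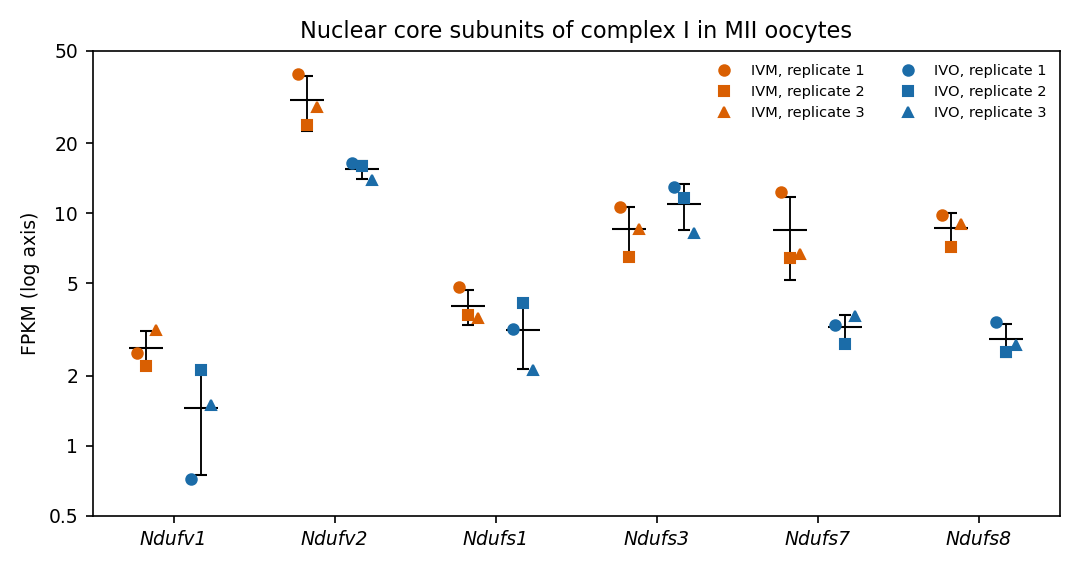
FPKM (log axis) of the 6 nuclear core subunits in each IVM (orange) and IVO (blue) library, with symbols for replicates 1 to 3 and horizontal bars with whiskers for the mean ± SD of 3 libraries. Ndufv2, Ndufs7, Ndufs8 and Ndufv1 have all IVO libraries below all IVM libraries, while the groups overlap for Ndufs1 and Ndufs3.

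FPKM is a level per length, so it can be compared between genes. In the IVM oocytes Ndufv2 had the highest level with a mean of 30.8 FPKM. Ndufs8, Ndufs3 and Ndufs7 followed at means of 8.66, 8.58 and 8.47 FPKM with overlapping ranges, so their order is within the spread between pools. Ndufs1 came next at 4.0 FPKM and Ndufv1 last at 2.62 FPKM, and their ranges overlapped neither each other nor those above. In the IVO oocytes the order began with Ndufv2 at 15.4 FPKM and Ndufs3 at 10.9 FPKM, whose ranges were apart. Ndufs7 at 3.23, Ndufs1 at 3.14 and Ndufs8 at 2.87 FPKM overlapped one another. Ndufv1 at 1.45 FPKM overlapped Ndufs1 but not Ndufs8. Ndufs8, Ndufs3 and Ndufs7, level with each other after in vitro maturation, no longer were after in vivo maturation, where every Ndufs3 value was above every value of the other two.

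The libraries were made from cDNA primed on the poly(A) tail, so the 3′ ends of the members are shown, because that is where priming starts. Each line gives 30 bases of the canonical GENCODE transcript on GRCm39, 5′ to 3′ on the coding strand, with the polyadenylation hexamer in capitals.
Ndufv1: gggaaactggacAATAAAcaagtgctgtcc
Ndufv2: tgtgtttgtatgAATAAAacattaccttca
Ndufs1: agtgtattcatatacacaaAATAAAtcttt
Ndufs3: aggttgtctgtaAATAAActccaatggaca
Ndufs7: gaatcccttgtgAATAAAcccatcctgatc

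AATAAA, the letters searched beside ATTAAA, stood within the last 50 bases of 5 of the 6 members, at 5 bases from the annotated end in Ndufs1 and 29 bases in Ndufv1. Neither hexamer stood there in the canonical transcript of Ndufs8. Among 10343 tested protein-coding genes, 75.8% held 1 of the hexamers in this window. The cytoplasmic polyadenylation element, a U-rich motif that governs tail length during oocyte maturation, was searched as TTTTAT or TTTTAAT within 100 bases before the hexamer on the coding strand. None of the 5 members with a hexamer held it, beside 20.5% of the tested genes with a hexamer that did. The search covers these letters in this window only.

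In the N module, Ndufv2 was the most abundant of the 6 members. It lies on chromosome 17 of GRCm39 from 66385633 to 66408634 on the minus strand, with 8 exons in its canonical transcript. Its FPKM was 39.84, 23.93 and 28.57 in the IVM libraries and 16.39, 16.04 and 13.88 in the IVO libraries. The groups did not overlap, and the IVM libraries were more spread than the IVO libraries. The mean was 30.8 ± 8.18 FPKM (SD, n = 3) in IVM and 15.4 ± 1.36 FPKM (SD, n = 3) in IVO, which differ by -0.92 on the log2 scale (adjusted p = 0.0299 from limma, standard error 0.23). These values rest on about 692 to 973 fragments per IVM library and 364 to 426 per IVO library, and the 95% exact Poisson intervals overlapped among the IVO libraries. The adjusted p rose above 0.05 without any 1 of 5 libraries, all but IVM replicate 2, at 0.0656 to 0.0816 from limma. Among these the log2FC was -0.73 without IVM replicate 1, its highest library, and -0.97 to -0.85 without the others. Without IVM replicate 2, its lowest IVM library, the log2FC was -1.08 and Ndufv2 was a DEG. With the trend of each library with gene length removed the log2FC was also -1.08, past the threshold (adjusted p = 0.0145 from limma). With median-ratio scaling it was -0.61 (adjusted p = 0.0889 from limma), and without a filter on low values the adjusted p was 0.0504 from limma.

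Ndufv1, the subunit that takes the electrons from NADH, had the lowest level of the 6. It lies on chromosome 19 from 4057384 to 4062814 on the minus strand, with 10 exons. Its FPKM was 2.5, 2.2 and 3.16 in IVM libraries and 0.72, 2.12 and 1.5 in IVO libraries. All IVO values were below all IVM values, but IVO replicate 2 fell short of IVM replicate 2 by little, and IVO replicate 1 stood far under the other two IVO libraries. About 18 fragments (95% exact Poisson interval 10.7 to 28.4, counting error only) lie behind the value of IVO replicate 1 and about 53 (39.7 to 69.3) behind that of IVO replicate 2, so these 2 libraries differed by more than counting error. The log2FC was -0.60 (95% interval -1.29 to 0.10, adjusted p = 0.191 from limma), an interval that holds both a decrease past the DEG threshold and no change. It was -0.37 without IVO replicate 1 and -0.80 without IVO replicate 2, and passed the test in neither case.

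Ndufs1, the largest core subunit and the bearer of several clusters of the N module, had overlapping groups. The gene spans 63182058 to 63216236 on the minus strand of chromosome 1, with 19 exons. Its FPKM was 4.80, 3.65 and 3.54 in IVM libraries and 3.19, 4.13 and 2.11 in IVO libraries. IVO replicate 2 lay between the IVM values, and IVO replicate 3 was the lowest of all. The log2FC of -0.29 (95% interval -0.91 to 0.33, adjusted p = 0.474 from limma) was close to the median of all tested genes, and with quantile normalization it turned to 0.17. Its canonical transcript shares 253 exonic bases with Eef1b2 on the opposite strand, a translation elongation factor gene at 99.4 to 141 FPKM in these libraries. Whether strand was used in counting is not given in the sources used here, and without it the reads of the shared bases cannot be assigned to either gene.

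In the Q module, Ndufs8 had the most negative log2FC of the 6 members. NDUFS8 is the ferredoxin-like subunit whose iron-sulfur clusters lead to that of NDUFS7. The gene lies on chromosome 19 from 3958862 to 3962948 on the minus strand, with 7 exons. Its FPKM was 9.86, 7.13 and 8.98 in IVM libraries and 3.39, 2.52 and 2.70 in IVO libraries. Every IVO library was far below the lowest IVM library. The means were 8.66 ± 1.39 FPKM (SD, n = 3) in IVM and 2.87 ± 0.459 FPKM (SD, n = 3) in IVO. The log2FC was -1.32 (95% interval -1.83 to -0.80, standard error 0.22, adjusted p = 0.00742 from limma), more than the spread between pools. About 110 to 138 fragments per IVM library and 34 to 45 per IVO library lie behind the values. Leaving out each library in turn kept it a DEG, with a log2FC from -1.43 to -1.23. With quantile normalization the log2FC was -0.84, short of the fold threshold, at an adjusted p of 0.0277 from limma.

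Ndufs7, the subunit next to the ubiquinone site, fell by 1.12 on the log2 scale. It lies on chromosome 10 from 80084941 to 80095049 on the plus strand, with 8 exons in the canonical transcript. Its listed length of 758 bases is the shortest of the 6. Its FPKM was 12.28, 6.44 and 6.69 in IVM libraries and 3.32, 2.75 and 3.61 in IVO libraries. The groups did not overlap, and IVM replicate 1 was 1.87 times the mean of the other IVM libraries. The means were 8.47 ± 3.30 FPKM (SD, n = 3) in IVM and 3.23 ± 0.438 FPKM (SD, n = 3) in IVO, with a standard error of the log2FC of 0.28 and an adjusted p of 0.0295 from limma. About 68 to 110 fragments per IVM library and 25 to 33 per IVO library lie behind these values. The call was lost without any 1 of 5 libraries, all but IVM replicate 2, at adjusted p-values of 0.0536 to 0.0924 from limma. Without IVM replicate 1 the log2FC was -0.84, and it was also -0.84 with median-ratio scaling (adjusted p = 0.0709 from limma). Its canonical transcript shares 473 exonic bases with Gamt on the opposite strand, which had at most 0.59 FPKM in any library.

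Ndufs7 was also assayed in the study by qRT-PCR and, for exon 3, by semi-quantitative RT-PCR, and the designed primers are shown because they define which part of the transcript each assay reads. Bases in capitals lie beyond an exon junction that the primer spans.
qRT-PCR forward: cgctccgaaagGTGTACGAC
qRT-PCR reverse: accgagtaggagtagtggtagt
RT-PCR forward: cggCTCCTGGCCTGCTCTCT
RT-PCR reverse: cccagttgatgaggtcatcc

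On the canonical Ndufs7 transcript the qRT-PCR pair bounds bases 529 to 628, from the junction of exons 5 and 6 into exon 7, so its product of 100 bases leaves out exon 3. The RT-PCR pair bounds bases 112 to 351, from the junction of exons 1 and 2 into exon 4, and gives 240 bases with exon 3 and 156 bases without it. Exon 3 lies at chr10:80088908-80088991 of GRCm39 and is wholly coding. Its 84 bases are a multiple of 3, so that its loss would remove 28 codons without shifting the frame. The exon is shown in capitals on the plus strand between the last 20 bases of exon 2 and the first 20 bases of exon 4.
Ndufs7 exon 3: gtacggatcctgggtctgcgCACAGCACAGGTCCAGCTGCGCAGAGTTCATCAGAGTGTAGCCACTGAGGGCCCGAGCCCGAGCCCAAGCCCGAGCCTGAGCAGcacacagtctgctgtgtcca

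The FPKM is 1 value per gene over all its isoforms, so the level of Ndufs7 given above holds transcripts with and without this exon together. Splicing was not analysed here.

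Ndufs3, which is among the first subunits to enter the growing Q module, went against the other members in the mean. It lies on chromosome 2 from 90724969 to 90735284 on the minus strand, with 7 exons. Its FPKM was 10.66, 6.51 and 8.56 in IVM libraries and 13.02, 11.59 and 8.20 in IVO libraries. IVO replicates 1 and 2 were above every IVM library, and IVO replicate 3 lay within the IVM range. The means were 8.58 ± 2.08 FPKM (SD, n = 3) in IVM and 10.9 ± 2.48 FPKM (SD, n = 3) in IVO. The log2FC of 0.32 (95% interval -0.30 to 0.93, adjusted p = 0.425 from limma) did not exceed the spread between pools. Relative to the median of all tested genes it was 0.61. Across all alternatives it stayed positive, from 0.15 without IVM replicate 2 to 0.83 with quantile normalization, and the adjusted p from limma ranged from 0.0484, in the latter, to 0.721. Ndufs3 shares 167 exonic bases with Kbtbd4 on the opposite strand, which had 5.43 to 7.73 FPKM in IVM and 7.37 to 9.74 FPKM in IVO libraries. As for Ndufs1, reads of these shared bases cannot be assigned to either gene without strand. Their part in the level of Ndufs3 was not tested. Partial copies of its transcript aligned at 2 other places in the genome, with at most 770 matching of 1156 aligned bases (66.6%). This measure counts gaps as mismatches, so the stretches without gaps can be more alike. Whether reads of Ndufs3 were shared with these copies was not tested. The same search found no second locus for the other members.

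**Figure D2:**
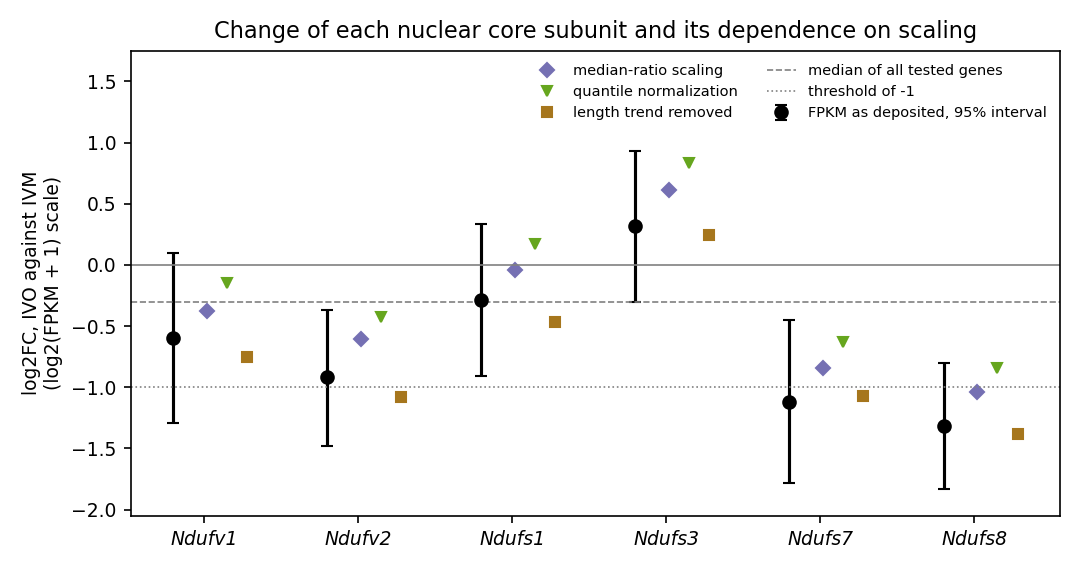
log2FC of IVO against IVM on the log2(FPKM + 1) scale for each subunit. Black points with 95% intervals come from limma on the FPKM as deposited, and colored points give the same value after median-ratio scaling, quantile normalization or removal of the length trend. Quantile normalization raises every subunit, leaves none below the threshold of -1 (dotted line) and takes Ndufs1 above 0, while Ndufs3 is above 0 in each setting.

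Relative to the median of all tested genes (-0.30), the log2FC was -1.02 for Ndufs8, -0.82 for Ndufs7, -0.63 for Ndufv2, -0.30 for Ndufv1, 0.00 for Ndufs1 and 0.61 for Ndufs3. Among all tested genes, 16.2% had a lower log2FC than Ndufs8, 21.3% a lower one than Ndufs7 and 84.6% a lower one than Ndufs3. With the FPKM as deposited, these ranks place the lower members inside the spread of all tested genes rather than at its edge. The median itself depends on the scaling, at -0.04 with median ratios and 0.17 with quantile normalization.

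A measure free of library scaling is the share of each member in the summed FPKM of the 6. The sum itself was 79.9, 49.9 and 59.5 FPKM in the IVM libraries and 40.0, 39.1 and 32.0 FPKM in the IVO libraries, without overlap. Ndufv2 held 49.8%, 48.0% and 48.0% of it in IVM and 40.9%, 41.0% and 43.4% in IVO libraries. Ndufs3 held 13.3%, 13.1% and 14.4% in IVM and 32.5%, 29.6% and 25.6% in IVO libraries, so that its lowest IVO share was well above its highest IVM share. Ndufs8 went from 12.3%, 14.3% and 15.1% to 8.47%, 6.44% and 8.44%, also without overlap. The shares of Ndufv1, Ndufs1 and Ndufs7 overlapped between the groups. The shares sum to 100%, so they are not independent of one another.

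**Figure D3:**
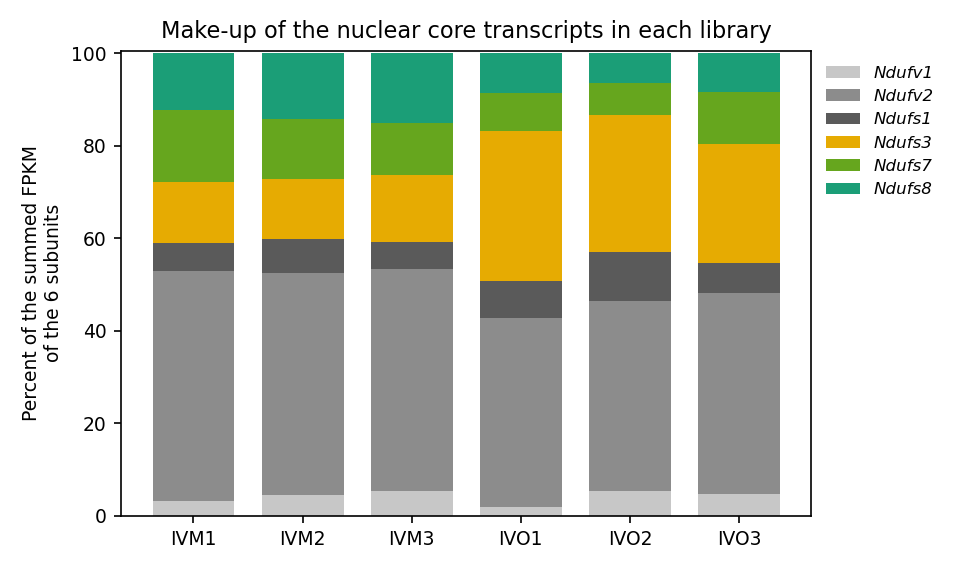
Percent of the summed FPKM of the 6 subunits taken by each of them, stacked, in each of the 3 IVM and 3 IVO libraries. The share of Ndufs3 (yellow) is 13.1% to 14.4% in IVM and 25.6% to 32.5% in IVO libraries, and those of Ndufs8 and Ndufv2 are smaller in every IVO library.

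Ratios between members within a library showed the same divergence. The ratio of Ndufs3 to Ndufs8 was 1.08, 0.913 and 0.953 in IVM libraries and 3.84, 4.60 and 3.04 in IVO libraries, and all IVO ratios were far above all IVM ratios. The ratio of Ndufs3 to Ndufs7 was 0.868, 1.01 and 1.28 in IVM and 3.92, 4.21 and 2.27 in IVO libraries. In contrast, the ratio of Ndufs7 to Ndufs8 was 1.25, 0.903 and 0.745 in IVM and 0.979, 1.09 and 1.34 in IVO libraries, and the groups overlapped. Of the 15 pairs of members, 8 had ratios that did not overlap between the groups, among them all 5 pairs with Ndufs3, 3 with Ndufs8 and 3 with Ndufs1. The pairs share members, so they are not independent of one another. How often such ratios lie apart over all pairs of genes was not counted, so the number cannot be called high or low. A two-sided exact permutation test of 3 against 3 samples cannot go below p = 0.1, so no ratio can pass a threshold of 0.05 in this design and the ratios are a description. The ratio of the summed N module members to the summed Q module members was 1.44, 1.48 and 1.46 in IVM and 1.03, 1.32 and 1.21 in IVO libraries.

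The mitochondrially encoded core genes, which supply the membrane arm, all had a positive log2FC, and this held with the length trend removed. It also held after each scaling of the libraries, which adds little. Median ratios, the same sum and quantile normalization raised the median of all tested genes from -0.30 to -0.04, -0.03 and 0.17. The share of all tested genes with a positive log2FC was not counted. The median log2FC of the 7 mitochondrially encoded genes was 0.61, and 1 of 7, mt-Nd4, was higher in IVO at an adjusted p under 0.05, beside 1.87% of tested genes. None was a DEG with the FPKM as deposited, while 2 were with median-ratio scaling, 2 with quantile normalization and 3 with scaling to the same sum. In these settings 388, 1097 and 397 of all 18818 tested genes were DEGs higher in IVO. mt-Nd4 had a mean of 1390 ± 386 FPKM (SD, n = 3) in IVM and 2612 ± 449 FPKM (SD, n = 3) in IVO oocytes, a log2FC of 0.94 (adjusted p = 0.0328 from limma). Its adjusted p from limma was 0.0588 with the length trend removed, 0.0537 with eBayes without trend, 0.0869 without a filter, and 0.0759 to 0.102 without any 1 of 4 libraries, all but IVM replicate 2 and IVO replicate 3. mt-Nd6 had the smallest difference, a log2FC of 0.20 (adjusted p = 0.567 from limma). Summed over the 7 genes the level was 5170, 10244 and 8414 FPKM in IVM and 12876, 14358 and 10126 FPKM in IVO libraries. IVM replicate 1 was the lowest of all 6 in this sum and, in 5 of the 6 nuclear core members, the highest of the IVM libraries. The ratio of the mitochondrially encoded to the nuclear core sum was 64.7, 205 and 141 in IVM and 322, 367 and 316 in IVO libraries, without overlap, and it compares levels of transcripts made in different compartments.

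The accessory subunits, which surround the core, had a more negative median log2FC, -1.42, than the nuclear core members. Among the 30 tested accessory genes were 19 DEGs lower in IVO, beside 17.9% of all tested genes, and 0 were higher, beside 0.606%. By limma 22 of the 30 had an unadjusted p under 0.05 in either direction, beside 36.9% of all tested genes. With quantile normalization 13 were DEGs lower and 1 was a DEG higher, beside 1580 and 1097 of all 18818 tested genes. Ndufa7 had the most negative log2FC, at -4.43 (adjusted p = 6.53e-04 from limma), with a mean of 134 ± 42.0 FPKM (SD, n = 3) in IVM and 5.24 ± 1.76 FPKM (SD, n = 3) in IVO. Ndufa10 had the most positive, at 0.52 (adjusted p = 0.195 from limma). The listed length of the accessory genes had a median of 693.5 bases, against 1353.5 bases for the 6 core members. With the length trend removed 18 of the accessory genes and 3 of the core members were DEGs lower in IVO. In this setting 3079 of all 18818 tested genes were DEGs lower in IVO. Whether the classes differ in their change was not tested.

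**Figure D4:**
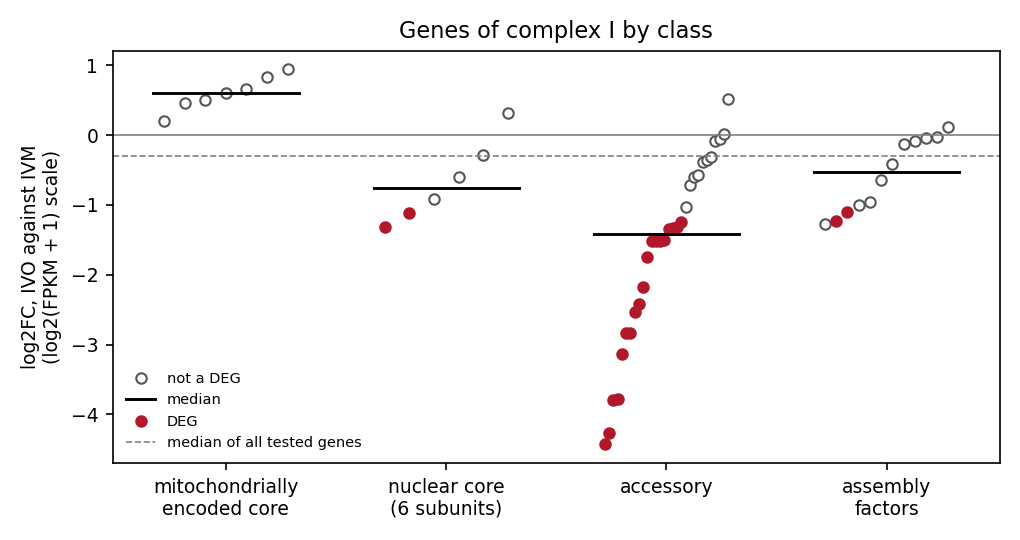
log2FC of IVO against IVM on the log2(FPKM + 1) scale for each tested gene of complex I, by class, with DEGs filled and the class median as a black line. The mitochondrially encoded core lies above 0, the nuclear core spans -1.32 to 0.32, and the accessory subunits reach down to -4.43.

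Of the assembly factors, which build the complex but are not part of it, 17 of 18 listed were in the table and 12 passed the filter on low values. DEGs lower in IVO numbered 2 of the 12, beside 17.9% of all tested genes, and 0 were higher, beside 0.606%. Their median log2FC was -0.53. Ndufaf3 had the most negative log2FC, at -1.28 (adjusted p = 0.0573 from limma), and Acad9 the most positive, at 0.12 (adjusted p = 0.857 from limma). With quantile normalization 6 of the 12 were positive and none was a DEG. In complex II, another entry point for electrons, 1 of 4 genes was a DEG lower in IVO, beside 17.9% of all tested genes. It was Sdhd, a membrane anchor, at a log2FC of -1.34 (adjusted p = 0.0204 from limma), and with median-ratio scaling it was not a DEG. The catalytic subunits of complex II, Sdha and Sdhb, had log2FC values of 0.39 and -0.53 and the anchor Sdhc 0.25, at adjusted p-values from 0.196 to 0.376 from limma.

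Genes whose levels followed those of the members were ranked by the root mean square difference between log2(FPKM + 1) profiles, each centered on its mean over the 6 libraries, among 10332 named Ensembl genes. The 2 nearest were Cox4i1, a subunit of cytochrome c oxidase, and Tmcc1 for Ndufs7, at 0.088 and 0.091. Prss3 and Tango2 were nearest to Ndufs8, at 0.072 and 0.078, and Jam3 and Cd7 to Ndufv2, at 0.065 and 0.066. Apeh and Cd3eap followed Ndufs3, at 0.062 and 0.071, Qpct and Polr2e followed Ndufs1, at 0.060 and 0.074, and Txndc15 and Ubl3 followed Ndufv1, at 0.110 and 0.134. Among the members themselves Ndufv2 and Ndufs7 were closest at 0.197, with Ndufs7 and Ndufs8 at 0.240 and Ndufv2 and Ndufs8 at 0.242. Ndufs3 and Ndufs8 were farthest apart at 0.834. With 6 libraries in 2 groups many genes share such a profile, and these distances are a description.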

How the data were processed

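The authors deposited FPKM, 1 value per gene and sample, computed with RSEM 1.3.3. Their SMART-Seq v4 reads had passed SeqPrep and Sickle and been mapped with HISAT2 2.1.0 on GRCm39, with versions from the submitters' processing notes and an annotation release not given in the sources used here. Their group means equal the mean of 3 samples and were not used, and counts were not used here. The deposited table also lists a length in bases per gene, which is another column. Genes with a mean of at least 1 FPKM were tested in R 4.3.3 with limma 3.58.1 (eBayes with trend) on log2(FPKM + 1), which understates changes of low genes, with the group alone in the model and p-values two-sided. On simulated data for this comparison with 200 of 18818 genes changed, 119 changed and 6 unchanged genes were called. The members and lists were chosen with earlier results of these data known.

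Depth was fitted for genes with 1 annotated transcript, and 69.4% to 71.0% of low values came out whole within 0.1 fragment. Fragment numbers use it with the listed length and are approximate, and 3 fragments correspond to 0.0648 to 0.337 FPKM for the members. Positions and sequences are from the GENCODE annotation and genome of GRCm39, and copies were sought with minimap2 2.31. The genes named are the 6 members, the extremes of each other complex I list, every gene of a list of 4 or fewer, and the 2 nearest genes of each member. Marker genes were named after their values were seen. The samples are described as biological replicates. Alternatives covered the pseudocount, the filter, scaling, Ensembl genes only, eBayes without trend, gene length, the replicate number as a block and each library left out.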

Additional observations from a re-analysis of the deposited data

How the results depend on the processing

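The values of Ndufv1 and Ndufs3 kept their direction and stayed short of the DEG call under each alternative, and no member was a DEG higher in IVO under any. Members that were DEGs lower in IVO numbered 2 with the FPKM as deposited, 1 without a filter, with median-ratio scaling, with scaling to the same sum and with the replicate block, 0 with quantile normalization, and 1 to 3 with each library left out in turn. With median-ratio scaling and the length trend removed together, an alternative added with the data in view, the number was 1. Ndufs7 was not a DEG at a log2FC of -1.12 without a filter (adjusted p = 0.0689), -0.84 with median-ratio scaling and with the same sum, -0.63 with quantile normalization, -0.79 with median-ratio scaling and the length trend removed, -1.12 with the replicate block (adjusted p = 0.0549) and -1.07 with the block and the length trend removed. With each library left out its log2FC ranged from -1.26 to -0.84. Ndufs8 was at -0.84 with quantile normalization. Ndufv2 reached -1.08 with the length trend removed, with or without the replicate block, and ranged from -1.08 to -0.73 with each library left out. Ndufs1 turned to 0.17 with quantile normalization. A minimum mean of 5 FPKM left Ndufv1 and Ndufs1 without a value. The replicate numbers did not pair the samples, since same-numbered samples had correlations of their deviations of -0.0618, -0.0176 and -0.107, so the block is a matter of shared numbers only. With it the adjusted p was 0.0608 for Ndufv2 and 0.0521 for mt-Nd4.

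Over all tested genes, DEGs lower and higher in IVO came to 3366 and 114 on the deposited FPKM, 1580 and 1097 with quantile normalization, 2102 and 388 with median-ratio scaling, 2131 and 397 with the same sum, and 1810 and 417 with median-ratio scaling and the length trend removed. Over Ensembl genes only 1972 were lower, and with the length trend removed 184 were higher. The lower DEGs were 96.7%, 84.4% and 59.0% of the total with the FPKM as deposited, median-ratio scaling and quantile normalization. The causes were not tested. Depth limits Ndufv1 most, with about 18 fragments in IVO replicate 1.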
